A study of Homo sapiens with 24 samples.

Results

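The data described here are 6 m6A summit lists from HepG2, an established human liver cancer cell line, 3 from a line expressing METTL14 with the substitution R298P and 3 from a line expressing EGFP. They are 6 of the 24 samples of the series and 6 of its 12 immunoprecipitated libraries, chosen by their titles. In m6A-seq, fragmented poly(A) RNA is precipitated with an antibody against N6-methyladenosine (m6A) and sequenced, and a summit is the position where a peak of precipitated fragments is highest. The R298P line carried a lentiviral METTL14 (R298P) cassette and the EGFP line a lentiviral EGFP cassette, and both were selected with puromycin. The series also holds lines expressing METTL14 (WT) and METTL14 (D312A), which are used below for reference. The labels name no promoter, no clone and no deletion of the lines' own METTL14, so the R298P line may still contain the unchanged protein, and the substitution, the amount of expressed protein and the single line cannot be told apart. The series title states that cancer mutations change the specificity of METTL3-METTL14, and the comparison asks where summits differ between the R298P line and the control.

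METTL3 carries the catalytic site that transfers a methyl group to adenosine in mRNA, and METTL14 is its partner, which does not catalyse the reaction itself but helps to hold the RNA. The pair methylates adenosines mostly in a GGAC context, often near stop codons and in the last exon. Reader proteins of the YTH family bind the mark and affect the decay, splicing or translation of the mRNA, and the demethylases FTO and ALKBH5 can remove it.

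Sequence was available for windows from 250 nt before to 50 nt after annotated gene starts, where R298P libraries held a larger share of their summits (values below). Stretches of 30 bases show what lies under some of the regions gained or lost there. Within 50 nt of the summit, GGAC was found at 5 of the 10 gained and 3 of the 3 lost regions in start windows. It lay 5 to 42 nt away at the gained regions, and 38, 6 and 39 nt away at the lost regions of TATDN2, ZNF275 and PTPRG. Windows of 101 nt at all 35116 annotated starts held GGAC in 32.8%, and the difference from these few regions was not tested. The stretches are from RefSeq, build GRCh38.p14, written 5′ to 3′ on the strand of the host gene. Capitals mark the GGAC nearest to the summit, and a stretch without capitals is centred on the summit, or as near to it as the window allows, and had neither GGAC nor GGAT within 50 nt inside the window. The first 4 lay in regions gained in R298P, in SIRT2 (a protein deacetylase, chr19:38899571-38899600, minus strand), SC5D (an enzyme of cholesterol synthesis, chr11:121292791-121292820, plus strand), SERPINA10 (a protease inhibitor secreted by liver, chr14:94293031-94293060, minus strand) and MMP14 (a membrane-bound matrix protease, chr14:22836594-22836623, plus strand). The last 2 lay in regions lost in R298P, in TATDN2 (chr3:10280802-10280831, plus strand, in the start window of the RNA gene GHRLOS) and in ZNF275 (chrX:153351986-153352015, plus strand, in the start window of LOC105373378). The SERPINA10 region was also present in 3 WT and 2 D312A libraries, and the SIRT2 region in 0 of either line. Counted from the highest summit value, the median rank in the R298P lists was 85.5% for SIRT2 and 82.7% for SERPINA10, so both were weak summits. For SC5D and MMP14 it was 42.6% and 33.8%. The ZNF275 region was not called with merging within 200 nt.
SIRT2: gcagtcggtgacgGGACacagtggttggtg
SC5D: gcggagcggcggcGGACcacctccaggtgg
SERPINA10: ctacactccacagGGACtgtacatacagat
MMP14: ttcgccgactaagcagaagaaagatcaaaa
TATDN2: aagacttgggGGACtgccgagcatatcaaa
ZNF275: gacagaacatgatGGACcacggacaccacc

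The lists held 11960, 11590 and 13721 summits in R298P replicates 1, 2 and 3, against 15373, 13859 and 12665 in EGFP replicates 1, 2 and 3. The means were 12424 ± 1139 and 13966 ± 1357 (SD, n = 3 each), and the ranges overlapped (exact permutation test, two-sided, p = 0.2). A single protein-coding gene span held 84.1% to 86.0% of each library's summits. The libraries differed in how many summits they held on abundant liver mRNAs, and not by line. The 20 listed secreted liver proteins held 87, 13 and 19 summits in R298P replicates 1, 2 and 3, against 58, 6 and 97 in EGFP replicates 1, 2 and 3. APOB, the main protein of liver lipoproteins, held 30, 2 and 1 summits in R298P libraries and 10, 0 and 32 in EGFP libraries, and 20 listed cytosolic ribosomal proteins together held 28, 5 and 4 against 14, 2 and 18. R298P replicate 1 and EGFP replicates 1 and 3 thus stood apart from the other 3 libraries on these genes. A prefix in the list names, of unstated meaning, differs between replicate 1 and replicates 2 and 3 of both lines, so the main differences below are also given for replicates 2 and 3 alone. In bulk RNA a summit gained or lost can come with more or less methylation or with more or less of the mRNA, and the 2 cannot be told apart here.

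METTL14 separated the lines as the labels say. Its span held 10, 6 and 9 summits in the R298P libraries, against 1, 1 and 1 in the EGFP libraries. Every R298P library lay above every EGFP library, and METTL14 had the largest difference of all genes tested with higher numbers in R298P (mean 8.33 ± 2.08 against 1.0 ± 0, SD, n = 3 each). The log2 difference was 2.20 ± 0.19 (SE; limma on log2(summits + 1), adjusted p = 0.0259), and it remained positive in all 13 alternatives, with adjusted p under 0.05 in 4 of them (range 0.000369 to 0.623). Among the alternatives that ended the call were lists of equal length, with 10, 6 and 5 summits in R298P and 0, 1 and 0 in EGFP (adjusted p = 0.159), and leaving out R298P replicate 3 (0.0796) or any 1 of the EGFP replicates (0.0774 to 0.0869). In METTL14, 5 regions were gained, meaning present in 3 of 3 R298P and 0 of 3 EGFP libraries. They start at positions 118687993, 118689436, 118692042, 118694520 and 118700619 of chromosome 4 (hg38), between 8.67% and 50.7% of the way along the span. Each of the 5 was present in at least 2 WT and at least 2 D312A libraries. With lists of equal length 2 of them, at 118689436 and 118694520, were still called. The METTL14 span held 11, 9 and 7 summits in WT and 9, 9 and 3 in D312A libraries.

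Summits of the R298P libraries lay closer to gene starts than those of the EGFP libraries. The share of summits in the last 20% of the host gene span was 48.5%, 49.3% and 48.8% in R298P libraries, against 51.2%, 52.1% and 53.4% in EGFP libraries. Every R298P library lay below every EGFP library, and the means were 48.9 ± 0.387% and 52.2 ± 1.15% (SD, n = 3 each), or -3.38 points for R298P minus EGFP (two-sided exact permutation test, p = 0.1, the lowest possible with 20 assignments of 3 and 3 libraries). The share in the first 20% was 18.7%, 18.5% and 17.8% in R298P libraries, against 16.3%, 15.2% and 13.7% in EGFP libraries. These groups did not overlap either, with a difference of 3.28 points (exact permutation p = 0.1). Within 500 nt of the start of the span lay 8.19 ± 0.440% of R298P summits and 5.42 ± 0.825% of EGFP summits (SD, n = 3 each, exact permutation p = 0.1). With 3 libraries a line, no such test can pass 0.05.

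**Figure D1:**
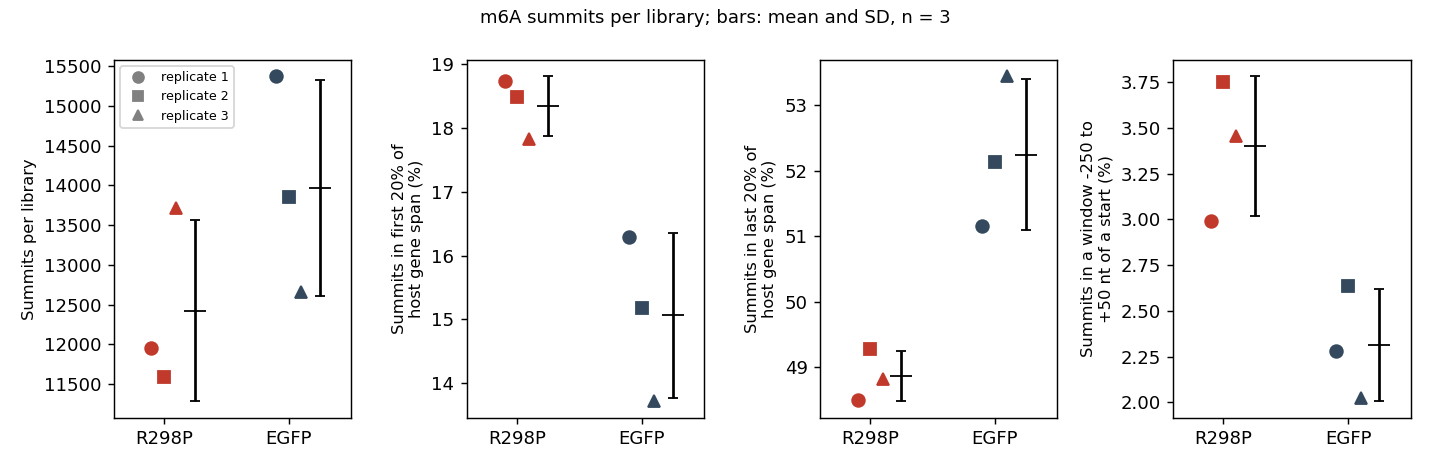
Summits per library and the percent of summits in the first 20% of the host gene span, in the last 20% and in start windows (vertical axes) for R298P and EGFP libraries (horizontal axis); symbols are replicates, bars the mean and SD (n = 3). The numbers of summits overlap between the lines, while the 3 shares do not. Axes do not start at 0.

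The difference lay at both ends of the span and held in short and long genes. In spans under 10 kb the share in the last 20% was 29.9 ± 0.991% in R298P and 34.3 ± 0.852% in EGFP libraries. In spans of 10 to 50 kb it was 50.1 ± 0.904% and 54.0 ± 0.876%, and in spans over 50 kb 54.3 ± 0.981% and 56.8 ± 1.47% (SD, n = 3 each; exact permutation p = 0.1 for each). In the longest class the lines all but met, at 55.37% in R298P replicate 1 and 55.43% in EGFP replicate 1. With every list cut to its best 11590 summits the difference in the last 20% was -4.05 points, and in replicates 2 and 3 alone it was -3.74 points. The libraries with few summits on secreted proteins had 49.3% and 48.8% (R298P replicates 2 and 3) and 52.1% (EGFP replicate 2). That is a single EGFP library, and the part of those genes in the difference was not tested. WT libraries had 50.4%, 53.0% and 51.1% of summits in the last 20% and 16.7%, 14.5% and 15.4% in the first 20%. D312A libraries had 49.8%, 52.9% and 51.3% in the last 20%, and 17.4%, 14.5% and 16.3% in the first 20%. The 3 R298P libraries thus lay above all 9 others in the first 20%.

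**Figure D2:**
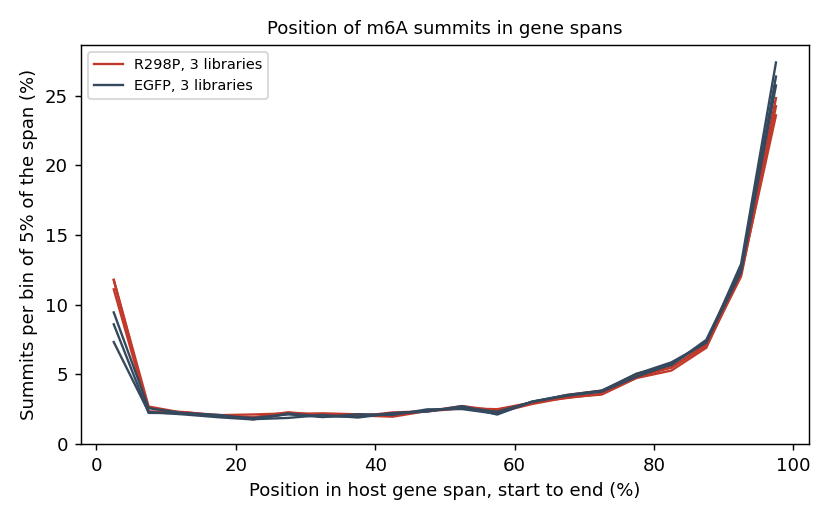
Percent of a library's summits (vertical axis) in 20 equal bins of the host gene span from start to end (horizontal axis, percent of the span), 1 line per library. Both lines of cells peak in the last bin and have a smaller peak in the first bin, where the 3 R298P libraries lie above the 3 EGFP libraries; in the last bin they lie below.

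The windows at annotated starts held 2.99%, 3.75% and 3.45% of the summits of R298P libraries, against 2.28%, 2.63% and 2.02% in EGFP libraries. The groups did not overlap (3.40 ± 0.383% and 2.31 ± 0.307%, SD, n = 3 each, exact permutation p = 0.1), and without EGFP replicate 3 the exact p was 0.2. In replicates 2 and 3 alone the difference was 1.28 points. Motifs were counted within 25 nt of summits in these windows on the strand of the host gene, which left 131 to 233 summits a library. GGAC was present at 30.5%, 30.4% and 30.9% of such summits in R298P libraries and at 32.8%, 32.2% and 35.9% in EGFP libraries. GGACT, the longer form that contains it, was present at 9.77%, 9.82% and 10.7% in R298P libraries and at 13.8%, 11.3% and 13.0% in EGFP libraries. Both shares were lower in every R298P library than in every EGFP library (exact permutation p = 0.1 each, adjusted over 4 motifs 0.2). The numbers of summits behind the shares overlapped. GGAC was near 53, 68 and 72 summits in R298P libraries and 62, 57 and 47 in EGFP libraries, and GGACT near 17, 22 and 25 against 26, 20 and 17. These were out of 174, 224 and 233 summits in R298P libraries and 189, 177 and 131 in EGFP libraries. Within 50 nt of summits, GGAC overlapped between the lines, with 46.3 ± 1.88% in R298P and 50.7 ± 4.95% in EGFP libraries (SD, n = 3 each, exact permutation p = 0.3, adjusted 0.5). GGACT there had 13.5 ± 1.17% and 18.0 ± 0.995% (exact permutation p = 0.1, adjusted 0.4). GGAT was present at 13.7 ± 1.15% in R298P and 13.0 ± 1.61% in EGFP libraries, and GGATT at 3.82 ± 0.339% and 3.76 ± 0.735% (SD, n = 3 each), with overlapping ranges (exact permutation p = 0.6 and 1, adjusted 0.8 and 1). Windows of the same 51 nt just after all 35116 annotated starts held GGAC in 19.1%, GGACT in 4.99%, GGAT in 12.7% and GGATT in 3.00%. These shares describe summits at starts, a small part of each list, and motifs elsewhere in mRNAs were not analysed here.

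On average, summits were shared more within a line than between the lines. Of the summits of one R298P library, 62.2 ± 1.49% had a summit of another R298P library within 100 nt, and within EGFP the share was 63.1 ± 1.98% (SD over 3 pairs each). Between an R298P and an EGFP library it was 59.4 ± 2.11% (SD over 9 pairs). The difference of within minus between was 3.32 points (exact permutation p = 0.1), and 4.38 points in replicates 2 and 3 alone. Single pairs overlapped: R298P replicate 1 shared 61.0% with R298P replicate 2 and 61.5% with EGFP replicate 1, and R298P replicate 3 shared 61.9% with R298P replicate 1 and 62.1% with EGFP replicate 3.

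Merging the 79168 summits within 100 nt gave 28263 regions. All 6 libraries had a summit in 4498 of them (15.9%), while 11110 had a summit in 1 library. In R298P, 228 regions were gained, 0.807% of all regions and 7.52% of the 3032 present in exactly 3 of the 6 libraries. In all, 437 regions were lost, present in 0 of 3 R298P and 3 of 3 EGFP libraries, which are 1.55% of all regions and 14.4% of those in exactly 3. The excess of lost regions was not found with lists of equal length. With every list cut to its best 11590 summits, 337 regions were gained (1.34% of all, 12.2% of those in exactly 3) and 306 lost (1.22% and 11% of those in exactly 3), and with the best 5000 summits 190 were gained and 138 lost. Long noncoding RNA genes held 7 gained (3.07%) and 8 lost regions (1.83%), against 4.02% of the regions in exactly 3 of the 6 libraries. In replicates 2 and 3 alone, where 2 of 2 against 0 of 2 was asked, 1011 regions were gained and 1149 lost.

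**Figure D3:**
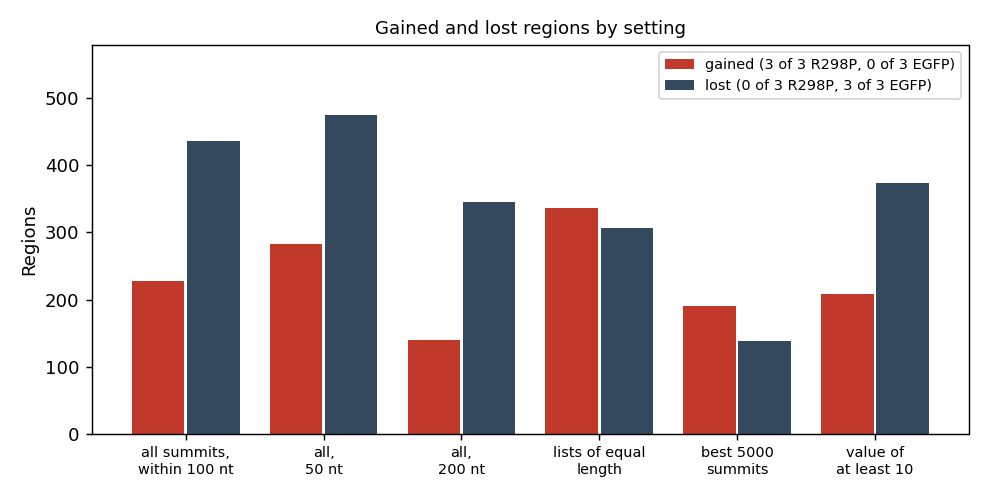
Number of gained and lost regions (vertical axis) under 6 settings (horizontal axis): all summits merged within 100, 50 or 200 nt, lists cut to equal length, the best 5000 summits, and summits with a value of at least 10. Gained regions number 228 and lost ones 437 with all summits within 100 nt; lost regions outnumber gained ones there, but not with lists of equal length or with the best 5000 summits.

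Gained and lost regions lay at different places in genes. Of the gained regions with a host gene of known strand, 44 of 174 (25.3%) lay in the first 20% of the span and 62 (35.6%) in the last 20%. Of the lost regions, 31 of 334 (9.28%) lay in the first 20% and 211 (63.2%) in the last 20%. The 1739 regions present in exactly 3 libraries of mixed lines had 19.6% in the first 20% and 47.2% in the last 20%, and regions present in all 6 libraries had 11.4% and 57.4%. Start windows held 10 of 228 gained (4.39%) and 3 of 437 lost regions (0.686%). Because the shares in the whole lists differ in the same direction, these counts are not a separate result.

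Part of the gained and lost regions lay close to a summit of the other line. The nearest EGFP summit lay 101 to 200 nt away from 87 gained regions (38.2%), and more than 1000 nt away from 79 (34.6%). For lost regions, the nearest R298P summit lay 101 to 200 nt away from 100 (22.9%) and more than 1000 nt away from 198 (45.3%). With merging within 200 nt, 137 gained (60.1%) and 328 lost regions (75.1%) were still called. With lists of equal length, 196 gained (86.0%) and 262 lost regions (60.0%) were still called.

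WT libraries, which did not enter these calls, held lost regions more often than other regions present in exactly 3 of the 6 libraries. They held gained regions less often. D312A libraries, which did not enter the calls either, held lost regions about as often as those other regions and gained regions less often. A summit was present in all 3 WT libraries at 163 of the 437 lost regions, in 2 at 159, in 1 at 83 and in 0 at 32. At the 228 gained regions it was present in all 3 WT libraries at 18, in 2 at 33, in 1 at 85 and in 0 at 92. As shares, all 3 WT libraries had a summit at 7.89% of gained, 37.3% of lost and 19.1% of the 2367 regions found in 3 libraries of mixed lines, and 0 had one at 40.4%, 7.32% and 16.9% of them. In D312A libraries, lost regions had a summit in all 3 libraries at 37, in 2 at 105, in 1 at 171 and in 0 at 124. Gained regions had one in all 3 D312A libraries at 14, in 2 at 34, in 1 at 59 and in 0 at 121. All 3 D312A libraries had a summit at 6.14% of gained, 8.47% of lost and 7.10% of mixed regions, and 0 had one at 53.1%, 28.4% and 27.1%, so lost regions lay near the mixed ones there. These are counts of regions, which were not tested. A summit in 0 of the 6 WT and D312A libraries was found at 71 gained (31.1%) and 11 lost regions (2.52%), and a summit in all 6 at 7 gained and 23 lost regions. Both lines' lists differ in length (12620 to 15114 summits in WT, 8669 to 12357 in D312A), which moves these counts, so the 2 lines are not compared with each other.

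**Figure D4:**
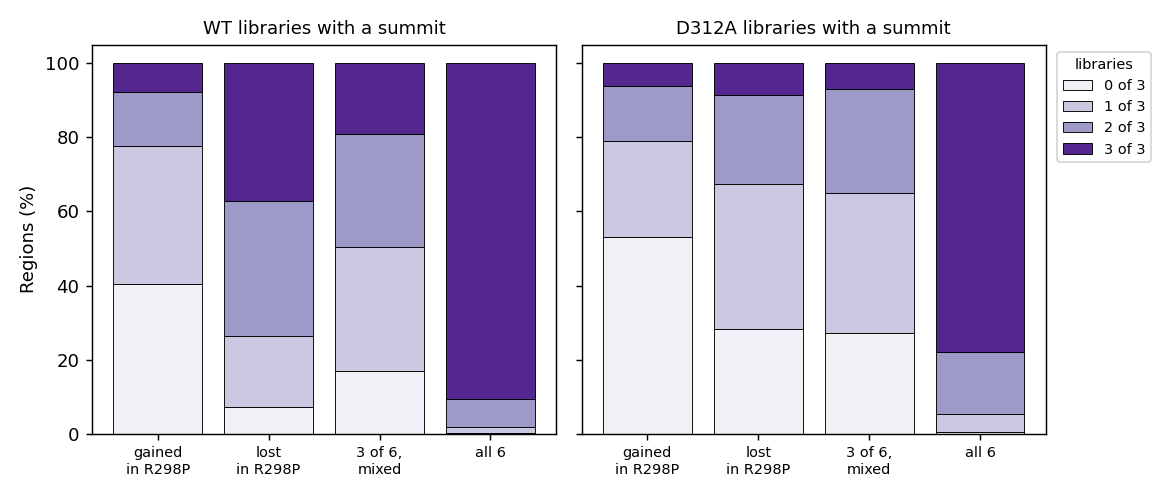
Percent of regions (vertical axis) with a summit in 0, 1, 2 or 3 of the WT libraries (left) and D312A libraries (right), for regions gained in R298P, lost in R298P, present in exactly 3 of the 6 libraries of mixed lines, and present in all 6 (horizontal axis). Lost regions were present in all 3 WT libraries at 163 of 437, gained ones at 18 of 228.

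Among gained regions in the span of 1 gene, the 10 best by the median rank of their summits in the 3 R298P lists lay mostly near EGFP summits. A region outside gene spans (chr14:19098136-19098138) ranked above them, at a median of 0.649%, and was called at 200 nt as well. The highest within a gene lay in TEX2, which has a lipid transfer domain, at chr17:64212713-64212715, with ranks in the top 3.89%, 0.880% and 0.510% of R298P replicates 1, 2 and 3. It had no summit in any WT or D312A library, but an EGFP summit lay 110 nt away. FEM1B, which recruits substrates to a ubiquitin ligase (chr15:68290944-68290948), and NCOA5, a coactivator of nuclear receptors (chr20:46061734-46061744), also had EGFP summits 138 and 148 nt away. DHX32, an RNA helicase homologue, ZNF292, a zinc finger protein, HS6ST1, a heparan sulfate sulfotransferase, AFTPH, a protein of clathrin trafficking, TBC1D16, a Rab GTPase-activating protein, and BTBD3 had EGFP summits 111 to 214 nt away. With merging within 200 nt these 9 were no longer called. PIN4, a peptidyl-prolyl isomerase, was the exception among these 10: its region at chrX:72181827-72181835 lay at 0.188% of the span, at the gene start, and the nearest EGFP summit was 23301 nt away. PIN4 held 1, 1 and 2 summits in R298P libraries and 0, 0 and 0 in EGFP libraries. It held 0, 0 and 1 in WT and 1, 0 and 2 in D312A libraries, so its summits were not found in R298P alone.

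With merging within 200 nt as well, 4 of the 10 best-ranked lost regions in the span of 1 gene were called. MLX, the dimerisation partner of glucose-sensing transcription factors, had its region at chr17:42571684-42571693, 75.2% along the span, present in 3 of 3 EGFP, 3 of 3 WT and 3 of 3 D312A libraries and in 0 of 3 R298P libraries. Its ranks were in the top 15.4%, 2.38% and 25.8% in EGFP replicates 1, 2 and 3, and the nearest R298P summit lay 10189 nt away. PWP1, a WD-repeat protein, lost a region at chr12:107712316-107712349 that was present in 3 WT and 1 D312A libraries, with the nearest R298P summit 20626 nt away. MNX1, a homeobox transcription factor, lost one at chr7:157010408-157010417, present in 1 WT and 1 D312A library. PTPN12, a tyrosine phosphatase, lost one 226 nt from an R298P summit. The regions of TBC1D16, MVB12B, TAF5L, TRAF6, PIGU and PARD6G lay 117 to 147 nt from an R298P summit and were not called at 200 nt.

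Genes with several changed regions were few. Besides METTL14, 5 genes held 2 gained regions each: KANSL3, a subunit of an acetyltransferase complex, LCMT2, a tRNA-modifying enzyme, MMP14, MTCL1, a microtubule-binding protein, and the zinc finger gene ZFP62. In MMP14 one region lay at the start of the span (chr14:22836594-22836609) and the other at 85.2% (chr14:22846076-22846130). In 12 genes there were 2 lost regions each: AAR2, BCL9L, CHDH, CHSY1, GCNT2, KMT2D, MAML1, MTF1, NKD1, POLR1A, PSMB7 and TAF5L. BCL9L and MAML1 are coactivators of Wnt and Notch transcription, NKD1 inhibits Wnt signalling, and PSMB7 is a proteasome subunit.

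In 22 genes there was both a gained and a lost region, which are 11.6% of the 190 genes with a gained region and 5.73% of the 384 with a lost one. In 12 cases the pair lay within 500 nt, with gaps of 101 to 282 nt. In TBC1D16 the region gained in R298P (chr17:79939662-79939689) lay 138 nt from the region lost (chr17:79939827-79939841). In TAF5L, a subunit of transcription coactivator complexes, the gained region at chr1:229594923-229594926 lay 130 nt upstream of the lost one. MARVELD2, a tight junction protein, HS6ST1, MARK2, a kinase of cell polarity, BCL9L, FAM117B and ARIH1, a ubiquitin ligase, were the other pairs of best rank. Of 9 pairs with known strand, the gained region lay upstream in 4 and downstream in the rest. MARK2 was the single pair in which both regions were called at 200 nt. In MARK2 the gained region was present in 0 WT and 1 D312A libraries, and the lost region, 212 nt away, in 3 WT and 3 D312A libraries.

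Of 9266 genes with a summit, 4568 held at least 6 summits over the 6 libraries and were tested for the number of summits. limma called 8 genes higher (0.175%) and 30 lower (0.657%) in R298P, but 36 of these 38 had the same number in all 3 libraries of each line and a difference of 1 summit, such as AKT2 (1, 1 and 1 in R298P and 2, 2 and 2 in EGFP libraries). Among them were 2 list members, AKT2 and LGR5, a receptor that acts in Wnt signalling, with 2, 2 and 2 summits in R298P and 3, 3 and 3 in EGFP libraries. Among the 7 higher ones were CABIN1, CDC42SE2, FBXO45 and MARK4, and the 29 lower ones were tied in size. Such calls rest on whole numbers without spread. With summits expressed per 10000 of the list limma called 0 genes (334 at unadjusted p under 0.05). Apart from METTL14, the single call with any spread was FTCD, a liver enzyme of histidine and folate metabolism. FTCD held 1, 1 and 1 summits in R298P libraries, against 4, 3 and 3 in EGFP libraries (log2 difference -1.11 ± 0.10, SE, limma adjusted p = 0.0339). It was lower in all 13 alternatives, with adjusted p under 0.05 in 5 of them (range 4.65e-07 to 0.485); among those without the call were leaving out any 1 R298P replicate (0.102 to 0.111), EGFP replicate 2 (0.0597) or EGFP replicate 3 (0.0548). FTCD held 1, 1 and 3 summits in WT and 1, 1 and 2 in D312A libraries.

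Without a test, 40 of the genes tested (0.876%) had higher numbers in every R298P library than in any EGFP library and 170 (3.72%) lower ones. With lists of equal length these were 75 (1.83%) and 93 (2.27%) of 4105 genes. The genes below were chosen for the size of this difference after their values were seen. After METTL14, PTBP3, a splicing regulator, held 7, 7 and 8 summits in R298P libraries, against 5, 2 and 3 in EGFP libraries. ZFP62 held 5, 5 and 5 against 3, 2 and 2, and JADE2, a subunit of an acetyltransferase complex, 7, 5 and 6 against 4, 4 and 3. TNRC6B, a protein of microRNA silencing, held 6, 7 and 6 summits in R298P libraries and 5, 5 and 4 in EGFP libraries. These 4 genes were higher without overlap in lists of equal length too, while none was called by limma (adjusted p 0.200 for ZFP62 and 0.652 for PTBP3).

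Among the lower genes, PSMB7 held 1, 2 and 1 summits in R298P libraries, against 6, 6 and 3 in EGFP libraries. N4BP2 held 0, 0 and 0 against 3, 2 and 4, and RGS3, a regulator of G protein signalling, 7, 6 and 6 against 9, 10 and 9. CEP350, a centrosomal protein, held 1, 2 and 2 in R298P libraries and 5, 4 and 4 in EGFP libraries. In lists of equal length these 4 genes remained lower without overlap. CHD1L, a chromatin remodeller, CFLAR, an inhibitor of caspase activation, NKD1, MKI67, a marker of dividing cells, and SON, a splicing cofactor, were lower without overlap in the full lists but overlapped in lists of equal length. MKI67 held 7, 6 and 8 summits in R298P libraries and 9, 10 and 10 in EGFP libraries.

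**Figure D5:**
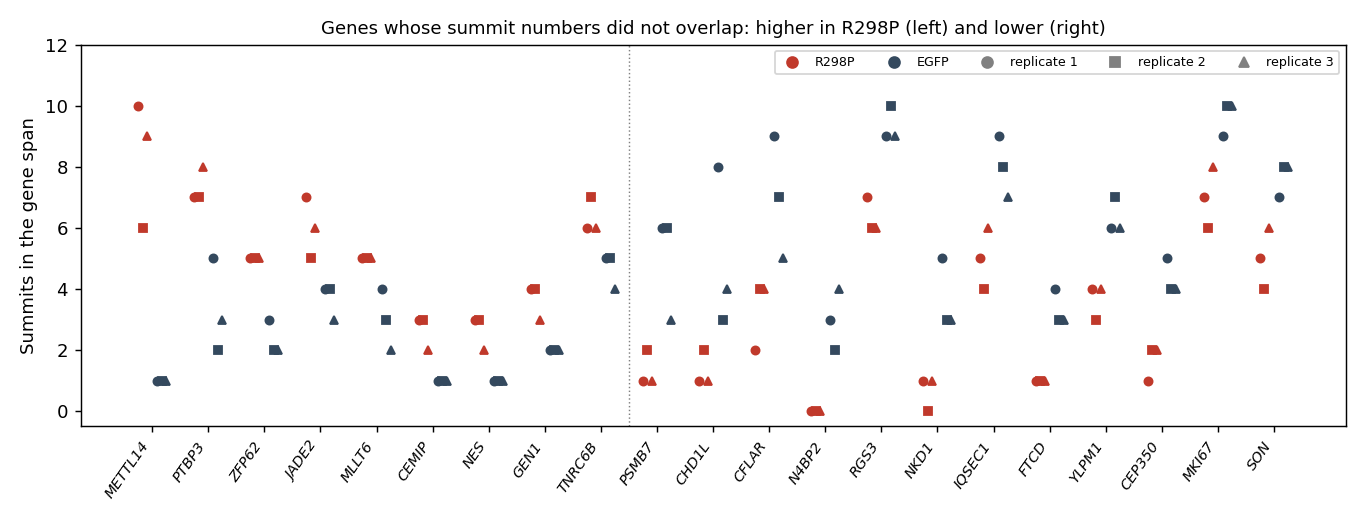
Number of summits in the span (vertical axis) of 21 genes whose numbers did not overlap between the lines, 9 higher in R298P (left of the dotted line) and 12 lower (right); 1 point per library. METTL14 has the widest gap, with 6 to 10 summits in R298P and 1 in each EGFP library.

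A summit was present in 3 of 3 R298P and 0 of 3 EGFP libraries for 33 genes (0.356% of 9266) and in 3 of 3 EGFP and 0 of 3 R298P libraries for 99 (1.07%). These counts are from the full lists, which were longer on average in EGFP. They were not made with lists of equal length, so the excess of 99 over 33 is not read as a net loss. SIRT2 and SC5D, whose start sequences are given above, held 1, 1 and 1 summits in R298P libraries and 0, 0 and 0 in EGFP libraries. SIRT2 held 0 in all 6 WT and D312A libraries as well, while SC5D held 1 in D312A replicates 2 and 3. NUMB, an inhibitor of Notch signalling, held 1, 1 and 1 in R298P libraries and 0, 0 and 0 in EGFP libraries, with its summit near the start. In WT libraries NUMB held 0, 2 and 1 summits and in D312A libraries 1, 1 and 0, so its summits were not found in R298P alone. Among the genes without a summit in R298P, GPAM, the enzyme of the first step of triglyceride synthesis, held 0, 0 and 0 summits in R298P libraries, against 2, 1 and 3 in EGFP libraries. SOCS1, a feedback inhibitor of cytokine signalling, held 0, 0 and 0 against 1, 3 and 1, and CDKN1B, an inhibitor of cyclin-dependent kinases, 0, 0 and 0 against 1, 2 and 2.

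Of 417 genes in 27 lists of pathways and cell types, 304 held a summit, 11 of them a gained region and 24 a lost one. Over all 9266 genes with a summit, 2.05% held a gained and 4.14% a lost region. Of 12 members of the m6A writer complex list, 10 held a summit. RBM15, a subunit that brings the complex to its RNAs, gained a region at chr1:110340871-110340881, and METTL16, a separate m6A methyltransferase, lost one at chr17:2420388-2420402 that lay 144 nt from an R298P summit. METTL3 itself held 1, 0 and 2 summits in R298P libraries and 1, 0 and 1 in EGFP libraries, with overlapping ranges.

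Among 15 erasers and readers of m6A, YTHDF2, which promotes decay of methylated mRNA, had both kinds of change. Its gained region (chr1:28743088-28743138) lay at 19.6% of the span and its lost region (chr1:28769062-28769106) at 97.9%, and it held 3 summits in every library of both lines. The lost region was present in 3 WT and 1 D312A libraries, and was not called with lists of equal length. YTHDC2, a reader with a helicase domain, lost its single summit (chr5:113593547-113593551), with 0, 0 and 0 in R298P libraries and 1, 1 and 1 in EGFP libraries. YTHDF1 held 4, 3 and 4 summits in R298P libraries and 5, 5 and 5 in EGFP libraries, and YTHDF3 5, 4 and 4 against 6, 6 and 6. Both overlapped between the lines in lists of equal length.

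Of 17 liver transcription factors, 16 held a summit, 0 gained a region and 3 lost one. HNF4A, a nuclear receptor central to hepatocyte identity, lost a region at chr20:44431310-44431312 but held 7, 7 and 8 summits in R298P libraries and 9, 9 and 7 in EGFP libraries. FOXA2 lost a region 193 nt from an R298P summit, with 3, 3 and 3 summits in R298P libraries and 3, 4 and 3 in EGFP libraries. FOXA3 lost one at chr19:45872451-45872483 and held 2, 1 and 2 summits in R298P libraries, against 4, 4 and 3 in EGFP libraries. With lists of equal length FOXA3 overlapped, with 2, 1 and 2 against 2, 4 and 3, and neither the FOXA2 nor the FOXA3 region was called. Of 14 lipid and xenobiotic receptors 11 held a summit, and PPARA, which drives fatty acid oxidation, and RXRA, its dimer partner, lost 1 region each. Among 20 secreted liver proteins, TF, which encodes transferrin, lost a region at chr3:133761837-133761873, with 9, 3 and 4 summits in R298P libraries and 15, 1 and 13 in EGFP libraries. PNPLA3, a lipid droplet protein, held 0, 0 and 0 summits in R298P libraries and 1, 1 and 1 in EGFP libraries. Among 16 listed cholesterol genes, 12 held a summit and 0 had a gained or lost region. SC5D, with the gained region described above, was not in that list.

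In the MYC network list, MGA gained a region at 77.5% of its span, 12804 nt from the nearest EGFP summit, and lost one at 97.5%, 133 nt from an R298P summit. MLX and MLXIP, its partner in glucose sensing, each lost a region. Of 19 histone lysine methyltransferases 17 held a summit. SETD2 gained 1 region, KMT2D lost 2, and KMT2A and KMT2C lost 1 each. CREBBP and KANSL3 gained regions, and CREBBP and KAT2A lost them, among 15 histone acetyltransferases. Of 15 feedback inhibitors of receptor tyrosine kinases, SPRY2 and SPRY4 lost 1 region each, and the 12 members with a summit held 22, 15 and 20 summits in R298P libraries, against 23, 29 and 29 in EGFP libraries. No member of this list was called by limma or was without overlap between the lines. The sum, from 1 of 27 lists, was not tested and was not made with lists of equal length. INCENP, LATS1 and KLF11 gained 1 region each, and IRS1, TOB2 and ZNRF3 lost 1 each. Over all lists, 9 of 16 gained and 18 of 26 lost regions were called with merging within 200 nt as well. The regions not called there were those of INCENP, KLF11, SETD2, KANSL3, CREBBP (a pair 178 nt apart), KMT2A, PPARA, METTL16, FOXA2, SPRY2 and IRS1, the gained one of BCL9L and the lost one of MGA. With lists of equal length, 13 gained and 20 lost regions were called, and the regions of RXRA and SPRY4 and 1 of the 2 of KMT2D were among those not called. In 11 of the 27 lists 0 members had a gained or lost region; beside the cholesterol genes these were suppressors of cytokine signalling, AKT and mTOR regulators, AP-1 genes, SR splicing factors, glycolysis, ribosomal proteins, long noncoding RNAs and the markers of other cell types.

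Markers of other cell types held few summits. Of 13 fibroblast and stellate cell markers 1 held a summit, and of 13 blood and macrophage markers 3. Of 9 endothelial markers 5 held a summit, in sum 3, 2 and 2 in R298P libraries and 0, 0 and 0 in EGFP libraries, with VWF, KDR, TEK and STAB2 at 0 in all 6. No endothelial marker had a summit in all 3 R298P libraries, and the part of these markers in the other results was not tested.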

How the data were processed

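Per the labels' protocols, poly(A) RNA of 3 biological replicates of each line was fragmented and precipitated with an anti-m6A antibody. The authors deposited 1 summit list per library. Per the submitters' processing notes, the tools included STAR 2.7.9a and MACS2 2.1.2 and the build was hg38; settings and the input behind each list are not stated there. Column 5 of the deposited lists has the range of a −log10 p-value or q-value (lowest value 5.0 to 5.03 per list); which of them it is was not settled, and it served only for ranks and thresholds inside each list. Read numbers are not given, so depth is unknown and counting error was not estimated. A deposited table of input RNA, with 18 columns of values that no label ties to a sample, was not used.

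Positions are 1-based on hg38. Summits of the 6 lists within 100 nt were merged. A summit was assigned where a single RefSeq (GRCh38.p14) protein-coding gene span, or else a single lncRNA span, held it; exons, introns and untranslated regions were not distinguished, and without strand in the lists overlapping antisense genes cannot be separated. Of 38382 spans 27302 had a strand. A genome was not used, so the planned motif analysis over all summits was not run, and start windows were used instead. A summit counted as present in a WT or D312A library where one lay within 100 nt of the region.

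Library values were compared by two-sided exact permutation tests over 20 assignments (smallest p 0.1). Numbers of summits per gene, at least 6 over the 6 libraries, were tested on log2(summits + 1) with limma 3.58.1 in R 4.3.3 and Benjamini-Hochberg adjustment (threshold 0.05). On simulated numbers for 4568 genes of this comparison, with 100 genes changed 4-fold each way, it recovered 42 higher and 3 lower genes, with 0 false calls. In the data, 36 called genes had no spread in either line, and the simulation cannot tell whether those calls are true. Python 3.11.15, pandas 2.3.3 and scipy 1.17.1 did the rest. Named genes were METTL14, the 10 best-ranked gained and lost regions in 1 gene, genes called by limma or with the largest differences without overlap, genes with 2 or more gained or lost regions, the 8 best-ranked neighbouring pairs, and list members with a change; further genes were chosen after their values were seen. Members and lists were chosen with earlier results of these data known. Alternatives were other merging distances, equal or shorter lists, a minimum value of 10, another pseudocount, no filter, leaving out replicates and a replicate block. Whether replicate numbers pair the samples was not settled. Correlations of deviations between the lines were 0.121, 0.129 and -0.0369 for numbers 1, 2 and 3. For pairs of different numbers they ran from -0.191 to 0.0838.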

Additional observations from a re-analysis of the deposited data

How the results depend on the processing

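Region counts depended on merging, list length and replicates, and gene counts on scale and filter. Gained regions numbered 140 with merging within 200 nt and 1011 in replicates 2 and 3 alone, and lost ones 1149 in replicates 2 and 3 and 138 with the best 5000 summits. Gained minus lost was -209 with all summits, 52 with the best 5000 of each list, 31 with lists of equal length, and -138 for replicates 2 and 3. Combinations chosen after seeing the data gave 1038 gained and 1042 lost (difference -4) in replicates 2 and 3 with equal lists, and 246 lost (difference -12) with equal lists merged within 200 nt. Leaving out 1 replicate, which relaxes the rule to 2 libraries in its line, gave 347 to 572 gained and 625 to 1037 lost (difference -690 to -53). With lists of equal length the sign followed the line that was relaxed. Gained and lost regions then numbered 673 and 467, 679 and 478, and 724 and 541 without R298P replicates 1, 2 and 3. Without EGFP replicates 1, 2 and 3 they numbered 585 and 767, 481 and 589, and 527 and 646.

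Genes called higher and lower by limma numbered 19 and 34 with equal lists, 0 and 0 per 10000 summits, and 32 and 98 without the filter. They numbered 114 and 154 in replicates 2 and 3, and 20 to 47 and 58 to 95 without 1 replicate. ANPEP and TM9SF4, called lower by 1 summit, had log2 differences of 0.39 and 0.031 with equal lists. The difference in genes with a summit was -374 with all summits and 56.7 with equal lists (exact permutation p = 0.3). The causes were not tested further. The shares of summits in the last 20% of spans and in start windows and the sharing within lines kept their direction in the alternatives run for them, with exact p of at least 0.1; leaving out replicates was not run for the share in the first 20%.

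With the replicate block, limma called 7 genes higher and 30 lower, and the exact p was 0.25 for the share in the last 20% of the span, the smallest that 8 arrangements allow; the block ended the calls of METTL14 (adjusted p = 0.36) and FTCD (0.39). The number of libraries limits these tests, and the unknown depth limits what an absent summit shows.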
